A study of Mus musculus with 2 samples.

Results

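The apolipoprotein genes examined here were Apoa1, Apoa2, Apoa4, Apoa5, Apob, Apoc1, Apoc3, Apoe, Apoh and Apom. They were taken by name from the 2 deposited tables of genes that mark cell clusters, and all 10 were listed in at least 1 of them, among 2783 listed genes in all. The cells were hepatocytes of wild-type BALB/c mice, 8 to 10 weeks old and fasted, that received PBS or recombinant IL-33 (rIL-33, 0.5 µg per day) by intraperitoneal injection for 5 days. The livers were perfused with a digesting enzyme, and each condition gave 1 droplet library that counts transcripts at their 3ʹ ends, 2 libraries in all and no replicates. Both tables pool the libraries, so PBS and rIL-33 could not be compared, no test was possible and every value below is a description. The paper gives total numbers of cells, but numbers per cluster were not derived here and the transcripts behind each value were unknown. No interval for counting error is therefore given, and shares in the smallest clusters rest on the fewest cells.

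Apolipoproteins are the proteins of lipoprotein particles, which carry cholesterol and triglyceride in plasma, and hepatocytes are their main source together with the intestine. Apob is the scaffold of very-low-density lipoprotein, Apoa1 and Apoa2 are the main proteins of high-density lipoprotein (HDL), and Apoe is a ligand for the receptors that clear remnant particles. Apoc1, Apoc3, Apoa4 and Apoa5 are exchangeable proteins that act on triglyceride clearance, with Apoa5 promoting it and Apoc3 inhibiting it. Apom carries sphingosine-1-phosphate on HDL, and Apoh, also named beta-2-glycoprotein I, binds negatively charged phospholipids.

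The authors grouped the hepatocytes into 5 clusters, Hepatocyte1 to Hepatocyte5. One table compares each cluster with the other hepatocytes, and another sets 12 clusters, 7 of them not hepatocytes, each against the rest of the cells. Every gene listed for a cluster had a higher mean there than in the reference cells (the lowest log2 fold change was 0.25) and reached a share of 25% or more of the cells on 1 side. The share, reported here for each listed gene inside and outside its cluster, is the percentage of cells that had a value above 0. A listed gene is therefore higher by its mean, but its share of cells can be lower. The clusters were made from the same cells and genes, so being listed is not an independent finding. The share is also bounded at 100%, so a gene found in all cells can differ in level without any difference in share. The number of transcripts counted per cell also moves a share, and its part in the differences between clusters was not tested. From the balance of the shares, Hepatocyte1 held 55.6% of the hepatocytes, Hepatocyte4 18.1%, Hepatocyte2 14.9%, Hepatocyte3 10.1% and Hepatocyte5 1.47%. Of 9 hepatocyte markers, 8 were listed for a hepatocyte cluster in the hepatocyte table and Cyp2e1 in the table of all cells alone. In both tables, hepatocyte clusters listed no markers of Kupffer cells, endothelial cells, stellate cells, cholangiocytes, T cells, B cells, neutrophils or red blood cells. This does not show that hepatocytes lacked these transcripts. The hepatocyte table compares hepatocytes only with each other, and the 5 cholangiocyte markers were listed for no cluster at all. In the table of all cells, the share outside the marker's own cluster ranged from 0% (Trac, T cells) to 68.1% (Igkc, B cells). For S100a8 it was 46.9% outside the neutrophils.

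In the hepatocyte table, 9 of the 10 genes were listed, in 12 gene and cluster pairs, and Apoc3 was not listed. Hepatocyte1 listed Apoa2, Apoc1 and Apom, or 3 of 10, where 1.36% of the 12477 genes tested were listed for this cluster. The genes tested are here those that the p-values were corrected for, and not all of them need have been compared. Hepatocyte4 also listed 3 (Apoa4, Apoa5 and Apob), against 7.05% of the genes tested. Hepatocyte5 listed 6 (Apoa1, Apoa4, Apoa5, Apob, Apoe and Apoh), against 7.00%. None was listed for Hepatocyte2, where 0.449% of the genes tested were listed, or for Hepatocyte3, with 0.986%. A gene found in nearly every hepatocyte meets the limit of 25% in any cluster, and how many of the genes tested reach it is not known from the tables, so these percentages are a low reference. Of the 9 genes, 3 were listed for both Hepatocyte4 and Hepatocyte5, 6 for 1 cluster alone, and none for both Hepatocyte1 and either of these 2. This is near what all listed genes showed: of 1604, 480 were listed for 2 clusters and 1118 for 1. Over all listed genes, Hepatocyte1 and Hepatocyte4 also shared 0 genes, Hepatocyte1 and Hepatocyte5 shared 5, and Hepatocyte4 and Hepatocyte5 shared 430 (49.0% of the first list and 49.4% of the second).

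**Figure D1:**
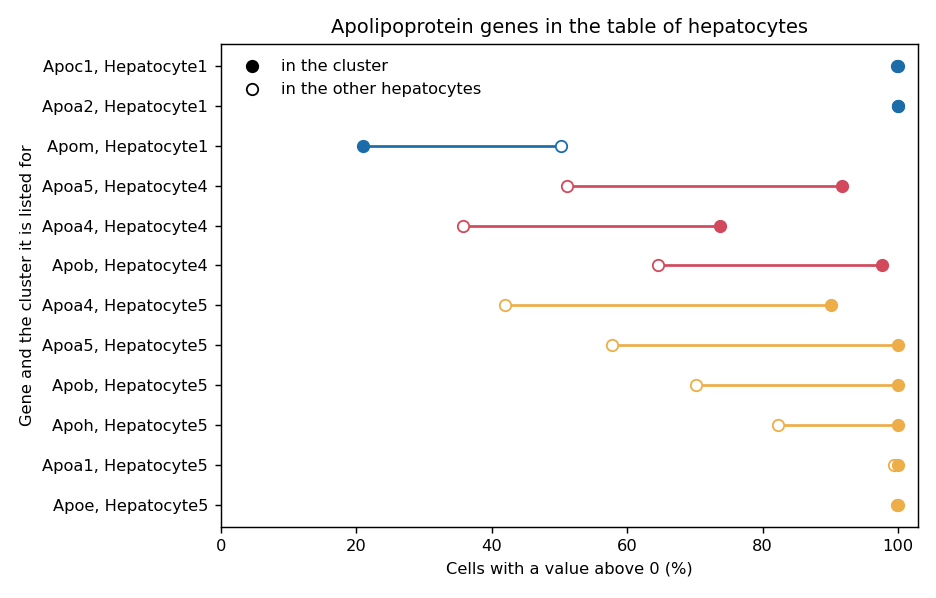
Share of cells with a value above 0 (x axis, %) for each apolipoprotein gene and cluster of the hepatocyte table (y axis). Filled points stand for the cluster, open points for the other hepatocytes. Apom in Hepatocyte1 is the 1 pair in which the cluster lies below the other hepatocytes (21.0% against 50.3%). The pairs at the right edge, such as Apoa2 and Apoe, are near 100% on both sides.

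The genes listed for both Hepatocyte4 and Hepatocyte5 were Apob, the scaffold of triglyceride-rich particles, and Apoa4 and Apoa5, which lie close to each other on chromosome 9. All were detected in a larger share of the cells of both clusters. To show the sequence upstream of these genes, the stretch before the first annotated start is printed. The same is given for Apoa1, the neighbour of Apoa4 and Apoa5 that was listed for Hepatocyte5 alone. The stretches are from the RefSeq promoter table (GRCm38.p6, plus strand), which held 8 of the 10 genes, and end before the first start in either RefSeq or GENCODE M21. Capitals mark matches on either strand to CAAAGNNCA, a form of the site bound by HNF4A, or to the TATA box TATAAA.

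Apoa4, chr9:46240594-46240695: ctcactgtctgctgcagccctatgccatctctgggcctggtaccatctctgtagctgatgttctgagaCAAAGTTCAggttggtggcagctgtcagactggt
Apoa5, chr9:46268358-46268607: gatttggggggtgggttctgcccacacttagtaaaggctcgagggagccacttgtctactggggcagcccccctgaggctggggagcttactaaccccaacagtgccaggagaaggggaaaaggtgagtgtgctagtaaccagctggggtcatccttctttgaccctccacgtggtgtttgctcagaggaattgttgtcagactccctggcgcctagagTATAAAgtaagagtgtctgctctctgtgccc
Apob, chr12:7977427-7977647: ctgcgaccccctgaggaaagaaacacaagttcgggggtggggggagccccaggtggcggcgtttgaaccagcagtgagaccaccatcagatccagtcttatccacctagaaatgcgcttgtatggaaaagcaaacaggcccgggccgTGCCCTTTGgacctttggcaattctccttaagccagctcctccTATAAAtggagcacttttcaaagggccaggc
Apoa1, chr9:46228380-46228579: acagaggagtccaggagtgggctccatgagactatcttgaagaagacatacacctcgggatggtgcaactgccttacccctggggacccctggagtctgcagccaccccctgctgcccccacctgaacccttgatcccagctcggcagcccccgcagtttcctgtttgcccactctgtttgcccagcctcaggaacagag

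Apoa4 held 1 match to CAAAGNNCA, and Apob held 1, on the opposite strand, together with a TATA box that begins 60 bases before its RefSeq start. Apoa5 has 2 RefSeq starts and held a TATA box that begins 31 bases before the first and 56 before the other. It held no match to CAAAGNNCA. Apoa1 held neither string, which does not show that it lacks a site for HNF4A in another form. The window of Apoh, which was listed for Hepatocyte5 alone in the hepatocyte table, held CAAAGNNCA as well, so the motif was not limited to the genes listed for both clusters. Of all 32851 mouse promoter windows of 300 bases (250 before and 50 after the start), 6.36% held CAAAGNNCA and 13.6% held TATAAA. The nuclear receptor half-site AGGTCA (16.3% of windows) and the forkhead site TGTTTAC (3.65%) were also searched. Neither string was found in the windows of the 4 genes printed above. Both were found in windows of Apoa2 and Apoh, and TGTTTAC in a window of Apoe. TATAAA was also found in windows of Apoa2 and Apoe, so it was not limited to Apoa5 and Apob. The form CAAAGNNCA was chosen after the sequences had been seen. Each motif was searched as a fixed string and variants were not searched, so a lack of a match is not evidence that a site is absent. A match is a description of the letters, not evidence of binding.

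Apoa4 (chromosome 9 of GRCm38, 46240696 to 46243459, 3 exons) was detected in 73.7% of Hepatocyte4 cells, against 35.8% outside the cluster, which is 37.9 percentage points more. In Hepatocyte5 it was found in 90.1% of the cells against 42%, a difference of 48.1 percentage points. Solving the balance of shares left Apoa4 in 34.8% of the cells of Hepatocyte1 to Hepatocyte3 combined, and in 42.7% of all hepatocytes. Apoa4 was thus the member of this group with the lowest share outside Hepatocyte4 and Hepatocyte5, and the order of the 3 levels was Hepatocyte5, Hepatocyte4 and the remaining clusters.

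Apoa5 (chromosome 9, 46268633 to 46271919, 4 exons) was found in 91.7% of Hepatocyte4 cells against 51.1% outside it, and in 100% of Hepatocyte5 cells against 57.8%. The share in Hepatocyte1 to Hepatocyte3 together came to 50.2%, and the share over all hepatocytes to 58.4%. Apob (chromosome 12, 7977648 to 8016835, 29 exons) was found in 97.6% of Hepatocyte4 cells against 64.5%, and in 100% of Hepatocyte5 cells against 70.1%. Its share in the other 3 clusters was 63.9%, and over all hepatocytes it was 70.5%. Put as cells in which the gene was not seen, Apob was missed in 2.4% of Hepatocyte4 cells but in 35.5% of other hepatocytes, and Apoa5 in 8.3% and 48.9%. Each of these genes followed the same order, with Hepatocyte5 above Hepatocyte4 and Hepatocyte4 above the remaining hepatocytes. The order was not particular to them: other genes listed for both clusters, such as Mttp and P4hb below, had it as well. For each gene, the Hepatocyte4 and the Hepatocyte5 rows gave overall shares at most 0.041 percentage points apart, within the rounding of the deposited shares to 3 decimals. The cluster sizes were fitted to bring such rows together, these genes included, so the small gap is no independent check.

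These differences were set beside those of all genes listed for the same cluster. Over all 880 genes listed for Hepatocyte4, the median difference in share was 33.1 percentage points and 878 genes had a higher share in the cluster. Apoa5 (40.6 percentage points) ranked 263 of 880 by this difference, Apoa4 314 and Apob 438. Over all 874 genes listed for Hepatocyte5 the median was 42.9 percentage points, and 873 had a higher share there. Apoa4 ranked 348 of 874, Apoa5 452 and Apob 678. The differences of widely detected genes such as Apob are limited by the ceiling of 100%.

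**Figure D2:**
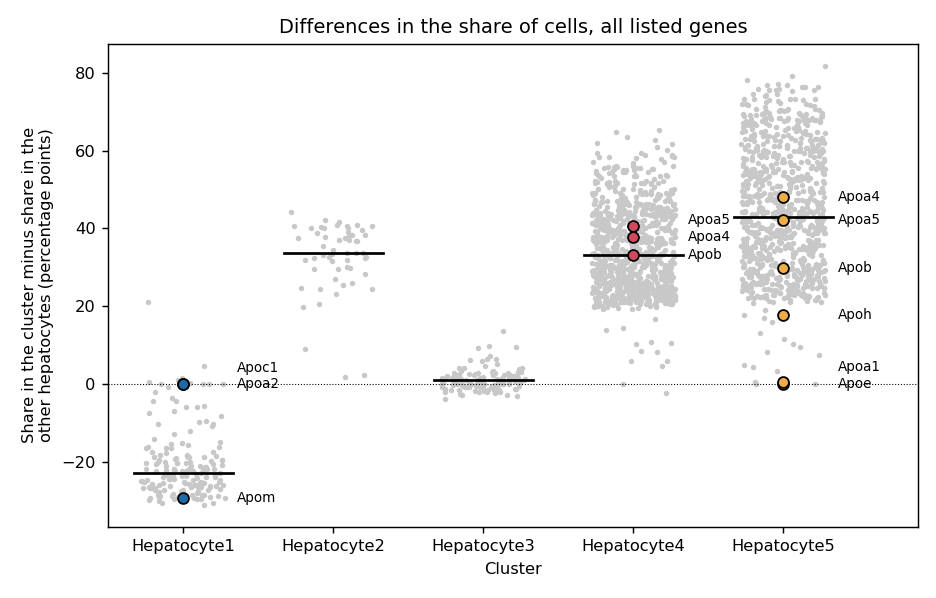
Share of cells in the cluster minus share in the other hepatocytes (y axis, percentage points) for every gene of the hepatocyte table (grey points, spread sideways for legibility), by cluster (x axis). Black bars are medians, and coloured points are the apolipoprotein genes, labelled at their right with labels moved apart where points are close. Apoa4, Apoa5 and Apob lie at or above the median of Hepatocyte4 (33.1), and Apom lies below the median of Hepatocyte1 (-22.9). In Hepatocyte5 all apolipoprotein genes except Apoa4 lie below the median (42.95).

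Among 429 other genes listed for exactly Hepatocyte4 and Hepatocyte5, the nearest to each of these genes was found by the largest gap over the 4 shares of both rows. For Apoa4 it was Pon1, which encodes the HDL-bound esterase paraoxonase 1, with a largest gap of 4.6 percentage points (78.2% in Hepatocyte4 and 94.7% in Hepatocyte5), followed by Mup20, a major urinary protein, with 7.1. For Apoa5 they were Igfbp4, an IGF-binding protein, with a gap of 1.2, and Ctsl, a lysosomal protease, with 2.1. For Apob they were Mug1, a protease inhibitor of plasma, with 3.9, and Cps1, the first enzyme of the urea cycle, with 5.0. The 4 shares come from 2 clusters of pooled cells, so likeness here is a description of few points.

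Hepatocyte5, the smallest cluster, with 1.47% of the hepatocytes and so the fewest cells behind a share, listed 3 further genes. Apoh (chromosome 11, 108343354 to 108414396, 8 exons) was found in 100% of Hepatocyte5 cells and 82.3% outside it, and the gap of 17.7 percentage points ranked 860 of 874. Apoa1 (chromosome 9, 46228580 to 46230466, 4 exons) was found in 100% inside and 99.4% outside. Apoe (chromosome 7, 19696109 to 19699188, 4 exons) was found in 100% and 99.9%. The shares of Apoa1 and Apoe were at their ceiling and ranked 872 and 873 of 874 by difference. All 6 apolipoprotein genes of Hepatocyte5 except Apoa4 were found in every cell of the cluster to the precision given.

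The apolipoprotein genes of Hepatocyte1 differed from these. Apoa2 (chromosome 1, 171225054 to 171226379, 4 exons) was found in 100% of the cells on both sides. Apoc1 (chromosome 7, 19689481 to 19692660, 3 exons) was found in 100% of Hepatocyte1 cells and 99.9% of the other hepatocytes. Apom (chromosome 17, 35128997 to 35132050, 6 exons) was found in 21.0% of Hepatocyte1 cells against 50.3% of the other hepatocytes, a share 29.3 percentage points lower, although it is listed there for a higher mean. Over all hepatocytes the share for Apom was 34%, the lowest of the 9 genes. A lower share was the rule in this cluster: 160 of its 170 listed genes had one, and the median difference was -22.9 percentage points. Apom ranked 158 of 170, while Apoc1 and Apoa2, at 7 and 9, were among the few genes without a lower share. Requiring a higher share in the cluster would leave Apoc1 as the 1 apolipoprotein gene of the 3 for Hepatocyte1, and that by 0.1 percentage points, which is no more than the rounding of both shares.

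The genes of each cluster also differed in transcript length, which the listing did not use. Apoa2, Apoc1 and Apom have longest annotated transcripts of 518, 532 and 1013 nucleotides in GENCODE M21. Apoa4, Apoa5 and Apob have transcripts of 1815, 2515 and 13934 nucleotides. Over all listed genes the median was 918 nucleotides in Hepatocyte1 and 3431 in Hepatocyte4, and Apom lay above the first and Apoa4 and Apoa5 below the second. Of the 6 Hepatocyte5 genes, all but Apob were shorter than the median of that cluster, 3618 nucleotides, with Apoa1 at 1035, Apoe at 1408 and Apoh at 1190. The part of transcript length in the listing was not tested.

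Of 10 further genes tallied by name, 9 other apolipoprotein genes and Apobr, which encodes a receptor for Apob, 4 were listed. Apoc2, the cofactor of lipoprotein lipase, and Apoc4 were listed for Hepatocyte1 alone. Apoc2 was found in 69.8% of Hepatocyte1 cells against 84.0% of the other hepatocytes, and Apoc4 in 96.7% against 95.7%. Apof, which modulates lipid transfer between lipoproteins, and Apon were listed for both Hepatocyte4 and Hepatocyte5. Apon was found in 85.8% of Hepatocyte4 cells against 22.4% and in 100% of Hepatocyte5 cells against 32.9%. Its difference of 63.4 percentage points ranked 3 of 880 in Hepatocyte4, the largest contrast in share of any apolipoprotein gene there. Apof was found in 82.5% against 39.1% and in 99.3% against 46.1%. Apod, Apol6, Apol7a, Apol9a, Apol9b and Apobr were not listed in either table.

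Genes that lie side by side were partly listed alike. On chromosome 9, Apoa1, Apoc3, Apoa4 and Apoa5 lie within 43.3 kb, with Apoc3 on the opposite strand (46232933 to 46235636). Apoa4 and Apoa5 were listed for Hepatocyte4 and Hepatocyte5, Apoa1 for Hepatocyte5 alone, and Apoc3, which lies between Apoa1 and Apoa4, for no cluster of the hepatocyte table. On chromosome 7, Apoe, Apoc1, Apoc4 and Apoc2 lie within 27.6 kb on 1 strand. Apoc1, Apoc4 and Apoc2 were listed for Hepatocyte1, and their neighbour Apoe for Hepatocyte5. Apon and Apof, 16.1 kb from end to end on chromosome 10, were both listed for Hepatocyte4 and Hepatocyte5. With so few groups of neighbours this is a description of position, and no relation was tested.

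**Figure D3:**
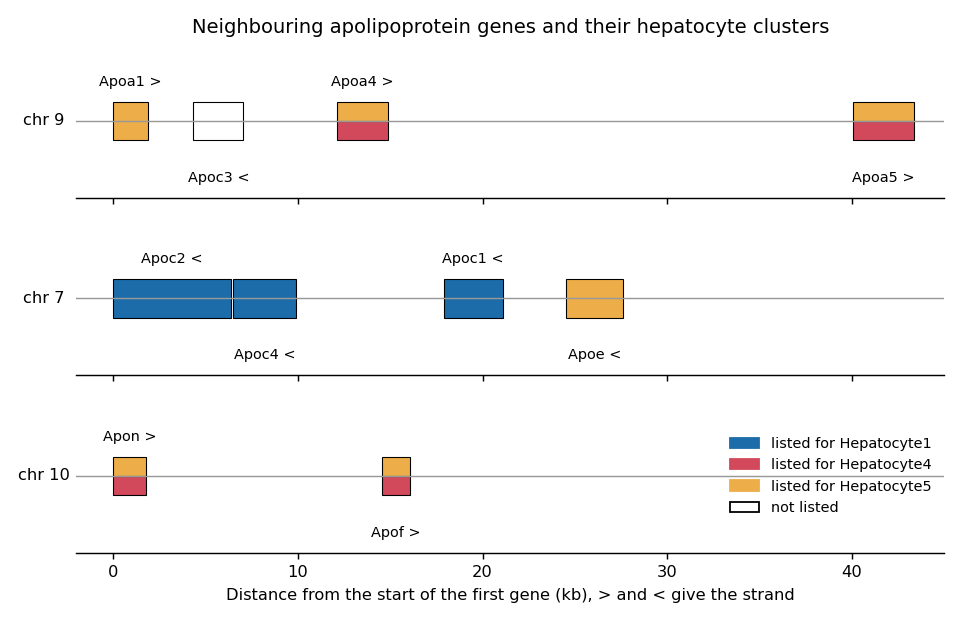
Position of neighbouring apolipoprotein genes on chromosomes 9, 7 and 10, as distance from the start of the first gene (x axis, kb). Boxes are genes, coloured by the hepatocyte cluster they are listed for (2 colours for 2 clusters, white for none), and > or < gives the strand. Apoc1, Apoc4 and Apoc2 share Hepatocyte1, whereas Apoa4, Apoa5, Apon and Apof share Hepatocyte4 and Hepatocyte5.

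The table of all cells listed 6 of the 10 genes, in 12 pairs, each for hepatocyte clusters. Apoa2, Apoc1, Apoe and Apom were not listed. The p-values of this table were corrected for 2000 genes, so these genes may not have been among those compared, and a lack of a row says nothing about their level. Hepatocyte1 listed Apoa1, Apoc3 and Apoh (1.55% of the genes tested were listed), Hepatocyte4 listed Apoa4, Apoa5, Apob and Apoh (22.1%), and Hepatocyte5 listed Apoa1, Apoa4, Apoa5, Apob and Apoh (21.7%). None was listed for Hepatocyte2 (0.500%) or Hepatocyte3 (1.85%). Apoc3, an inhibitor of lipoprotein lipase, had its 1 row here, with 98.3% of Hepatocyte1 cells against 93.0% of all other cells. Apoa1 was found in 100% of Hepatocyte1 cells against 96.8%. Apoh was found in 83.6% of Hepatocyte1 cells against 81.9%, 97.3% of Hepatocyte4 cells against 79.9%, and 100% of Hepatocyte5 cells against 82.5%, and was the 1 gene of the 10 listed for 3 clusters. No apolipoprotein gene was listed for any of the 7 other clusters, and Apoe, which macrophages also make, had no row in this table. Of the 2000 genes, these 7 clusters listed from 98 (endothelial cells) to 598 (T cells), with 499 for Kupffer cells.

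Both tables describe clusters of the same names and nearly the same relative sizes, but the shares inside them differed. Apoa4 was found in 73.7% of Hepatocyte4 cells by the hepatocyte table and in 94.6% by the table of all cells, 20.9 percentage points more. In Hepatocyte5 its shares were 90.1% and 99.3%. Apoa5 in Hepatocyte4 had 91.7% and 98.2%, and Apob 97.6% and 98.8%. This was general: of 385 genes listed for Hepatocyte4 in both tables, 361 had a higher share in the table of all cells and 18 the same within 0.15 percentage points, with a median shift of 13.9 percentage points. Values corrected for batch before the comparison are possible in a table of 2000 genes, and a share would then count corrected values rather than cells in which a transcript was seen. The contrasts were smaller there: the difference between Hepatocyte4 and the reference was 30.9 percentage points for Apoa4, 25.1 for Apoa5 and 21.6 for Apob, against 37.9, 40.6 and 33.1 in the hepatocyte table, and the reference cells also differ between the tables. For the same reason the share of cells other than hepatocytes with an apolipoprotein transcript, which would give the level of free RNA in the droplets, could not be derived. Alb, the hepatocyte product albumin, had a value above 0 in 100% of the cells outside Hepatocyte4 in this table, non-hepatocytes included, so a share near 100% in this table does not by itself mark expression.

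**Figure D4:**
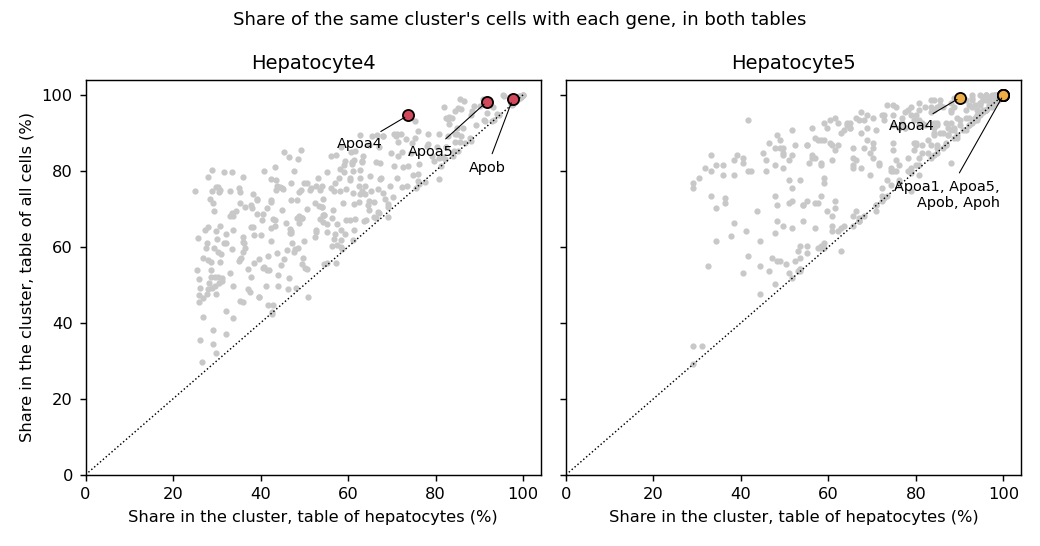
Share of a cluster's cells with a value above 0 in the hepatocyte table (x axis, %) and in the table of all cells (y axis, %), for Hepatocyte4 (left) and Hepatocyte5 (right). Grey points are genes listed in both tables, coloured points the apolipoprotein genes, and the dotted line marks equal shares. Most points lie above the line, among them Apoa4 (73.7% and 94.6% in Hepatocyte4), whereas Apoa1, Apoa5, Apob and Apoh are at 100% in both tables in Hepatocyte5.

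Other genes of lipoprotein metabolism were tallied from lists in the hepatocyte table, to set the apolipoprotein genes beside the machinery they work with. Of 16 genes of particle assembly and secretion, Hepatocyte4 listed 7, Hepatocyte5 listed 7 and the other clusters 0. Mttp, the transfer protein that loads lipid onto Apob, was found in 63.7% of Hepatocyte4 cells against 13.5% and in 94.0% of Hepatocyte5 cells against 21.6%. P4hb, which encodes protein disulfide isomerase, a subunit of the same transfer complex, was found in 75.9% against 23.7% and in 96.0% against 32.2%. Mia2 and Mia3, which act in the export of large cargo from the endoplasmic reticulum, were found in 61.4% and 63.3% of Hepatocyte4 cells against 17.3% and 11.7%. Apobec1, the enzyme that edits Apob mRNA, was not listed for a hepatocyte cluster. Mttp and Apob were thus listed for the same clusters, with higher shares in both.

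Of 11 genes that remodel particles in plasma, 3 were listed for Hepatocyte4 and 5 for Hepatocyte5. Lcat, the enzyme that esterifies cholesterol on HDL and is activated by Apoa1, was found in 63.5% of Hepatocyte4 cells against 22.8%. Angptl4, an inhibitor of lipoprotein lipase, was found in 55.3% against 11.9%, and Pon1 in 78.2% against 35.9%. Lipc, hepatic lipase, was listed for Hepatocyte5 alone, with 54.3% against 6.8%. Of 12 receptor and uptake genes, 3 were listed for Hepatocyte4 and 5 for Hepatocyte5. Lrp1, a receptor for Apoe-bearing remnants, was found in 46.9% of Hepatocyte4 cells against 10.7% and in 88.1% of Hepatocyte5 cells against 16.2%. Scarb1, the HDL receptor, was found in 78.8% of Hepatocyte5 cells against 11%, and Sdc1, a heparan sulfate proteoglycan that binds remnants, in 67.5% against 13.0%.

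Of 6 genes of lipid export, 3 were listed for Hepatocyte4 and 5 for Hepatocyte5. Abca1, which loads lipid onto Apoa1, was found in 37.1% of Hepatocyte4 cells against 4.2% and in 71.5% of Hepatocyte5 cells against 9.3%. The bile transporters Abcb11 and Abcb4 were found in 88.1% and 92.1% of Hepatocyte5 cells against 12.3% and 20.4%, and the sterol transporter Abcg8 in 40.4% against 6.5%. Of 22 transcriptional regulators known to act on apolipoprotein genes, 7 were listed for Hepatocyte4 and 3 for Hepatocyte5. Creb3l3, which activates Apoa4 and Apoa5, was found in 70.3% of Hepatocyte4 cells against 25.8% and in 95.4% of Hepatocyte5 cells against 32.9%. Hnf4a was found in 65.9% of Hepatocyte4 cells against 19.7% and was not listed for Hepatocyte5. Ppara was found in 36.1% and 53.0% of Hepatocyte4 and Hepatocyte5 cells against 8.3% and 12.7%, and Mlxipl in 55.0% of Hepatocyte5 cells against 5.4%. Hepatocyte1 to Hepatocyte3 listed 0 genes of these 5 lists. Hepatocyte4 and Hepatocyte5 also have the longest lists of all, so these counts stand beside the 7.05% and 7.00% of tested genes given above.

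Plasma and acute-phase proteins that can travel on lipoproteins were listed for the same 3 clusters as the apolipoprotein genes. Of 9 such genes, Hepatocyte1 listed 4, Hepatocyte4 2 and Hepatocyte5 4, with Hp in both Hepatocyte1 and Hepatocyte5, beside 1.36%, 7.05% and 7.00% of the genes tested. Pon1 and Pltp of this list were also counted among the genes that remodel particles. Saa2, an acute-phase protein that joins HDL in inflammation, was found in 53.8% of Hepatocyte1 cells against 49.1% of the other hepatocytes, and Saa1 in 57.6% against 62%. Clu, also named apolipoprotein J, was found in 91.0% of Hepatocyte4 cells against 46% and in 100% of Hepatocyte5 cells against 53.5%. Hpx, the haem-binding protein hemopexin, was found in 100% of Hepatocyte5 cells against 86.8%.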

How the data were processed

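Hepatocytes from 1 PBS and 1 rIL-33 library (2 samples, grouped by their labels) were processed by the authors. They counted UMIs with Cell Ranger on mm10, kept cells with 200 to 3000 genes and at most 50% mitochondrial genes, scaled cells to a total of 10000 on a natural log scale, clustered with Seurat (50 components, resolution 5) and ran FindAllMarkers on the pooled cells. The limit of 3000 genes was set against possible doublets, and cells were not sorted. Without the cells, doublets could not be looked for here. The deposited fractions are the shares of cells with a value above 0, rounded to 3 decimals, and are printed here as percentages. The deposited log2 fold changes and p-values are the authors' own comparisons. They were read only for the lowest fold change listed (0.25) and for the ratio of adjusted to raw p-value (12477 genes in the hepatocyte table, as a median from rounded values, and 2000 in the table of all cells), and none is reported.

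Relative cluster sizes were fitted by least squares so that each gene listed for at least 2 clusters had 1 share over all cells (486 genes), checked on simulated shares of known sizes. With these sizes the shares over all hepatocytes and in the clusters without a row were solved. In the hepatocyte table, 7 rows hold gene names stored as dates and were left out of gene matching. Genes were named if they were members, were among the 4 largest differences of a list, or were the 2 nearest by shares to a member listed for 2 clusters or more. An item of the lists that this rule would name is not reported here. The members and lists were chosen with earlier results of these data known. Alternatives are given in the closing section. Depth per library and cell is unknown, and replicates were lacking. Positions are from GENCODE M21 (GRCm38, the assembly of mm10). Python 3.11.15, NumPy 2.4.6, pandas 2.3.3, SciPy 1.17.1 and Matplotlib 3.10.9 were used.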

Additional observations from a re-analysis of the deposited data

How the results depend on the processing

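The count of apolipoprotein genes listed for Hepatocyte1 was 3 as listed, 1 if the share had to be higher in the cluster and 0 if it had to be at least 10 percentage points higher. For Hepatocyte5 it was 6 as listed, and the same requirements gave 6 and 4, whereas for Hepatocyte4 they left 3. The table of all cells gave 3 for Hepatocyte1, 4 for Hepatocyte4 and 5 for Hepatocyte5, with partly other genes. Shares over all hepatocytes moved by at most 0.0254 percentage points with sizes from rows at least 10 percentage points apart or from least absolute deviations, and cluster sizes by at most 0.115. The share of non-hepatocytes with each gene could not be given under any setting, because shares inside the same cluster differed between the tables. No paired analysis was possible because each condition had 1 library and both were pooled. Genes near 100% in all hepatocytes, such as Apoa2 and Apoe, are beyond what a share can resolve.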

Other observations

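Several genes of the lipoprotein lists were listed for clusters other than hepatocytes in the table of all cells, whose shares may be of corrected values, and the following were chosen after their values were seen. Lpl, which encodes lipoprotein lipase, had a value above 0 in 94.7% of the cells of the stellate cell and fibroblast cluster against 15.2% of all other cells, and in 48.7% of Kupffer cells against 14.4%. Gpihbp1, the anchor of that enzyme on capillary endothelium, was found in 32.4% of endothelial cells against 1.3%, and in 57.9% of the stellate cell and fibroblast cluster against 1.5%. Msr1, a scavenger receptor of macrophages, was found in 51.3% of Kupffer cells against 0.8%, and in 63.2% of the stellate cell and fibroblast cluster against 2.1%. Genes of endothelial cells and macrophages were thus also detected in that cluster. It held 0.171% of all cells by the balance of shares, so its shares rest on few cells. Apobec1, the editing enzyme of Apob mRNA, was found in 58.6% of Kupffer cells against 27.5%, and was also listed for B cells with a lower share inside than outside (25.9% against 28.4%). No difference was tested.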
